A study of Mus musculus with 7 samples.

Results

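The genes described here are 9 components of the Notch pathway that are expressed in or around the intestinal crypt: the receptors Notch1 and Notch2, the ligands Dll1, Dll4 and Jag1, the glycosyltransferase Lfng, the transcription factor Rbpj, and the transcriptional outputs Hes1 and Atoh1. They were taken by gene name from a table of 38293 genes, and all 9 were found and passed the filter on low counts. RNA had been sequenced from scrapings of the ileum, the distal end of the small intestine, of male C57BL/6NRJ mice aged 8 weeks, which were housed singly and acclimatized for 1 week on a high-fat, low-calcium purified diet. For the next 2 weeks they ate that diet with either 0.38% cystine (normal cystine, 4 mice: libraries X17SI4, X32SI4, SI9 and X1SI4) or 0.08% cystine (low cystine, 3 mice: libraries X23SI4, X26SI4 and X10SI4), where alanine took the place of the added cystine. Every library came from 1 mouse, and scraping takes the epithelium together with the lamina propria beneath it. In such bulk tissue, fewer cells of a type and less RNA per cell cannot be told apart.

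In the intestinal crypt, Notch signalling acts between touching cells. A ligand on one cell binds a receptor on its neighbour, the receptor is cut, and its released intracellular part joins Rbpj in the nucleus to switch on Hes1. Hes1 represses Atoh1, the factor that commits a cell to the secretory lineages (goblet, Paneth, enteroendocrine and tuft cells), so cells with active Notch stay progenitors or become absorptive enterocytes, while cells that present Dll1 and Dll4 become secretory.

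No diet difference in the 9 genes passed the test. In the edgeR quasi-likelihood fit of 14869 genes, 0 of 9 had an adjusted p under 0.05 (adjusted p 0.794 to 0.985), and the background was 0% of all genes tested. At an unadjusted p under 0.05 the count was also 0 of 9, beside 5.49% of all genes (2.66% higher and 2.83% lower on low cystine), and DESeq2, which called 16 genes, called 0 of the 9. In no member did the libraries of the 2 diets separate completely, which they did in 6.83% of all genes tested. The estimate was higher on low cystine for 7 members and lower for 2, with a median log2 fold change of 0.18, beside 0.01 over all genes tested. The 95% interval of every member included 0, and the widest of them did not exclude a doubling of Notch1 or Notch2.

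**Figure D1:**
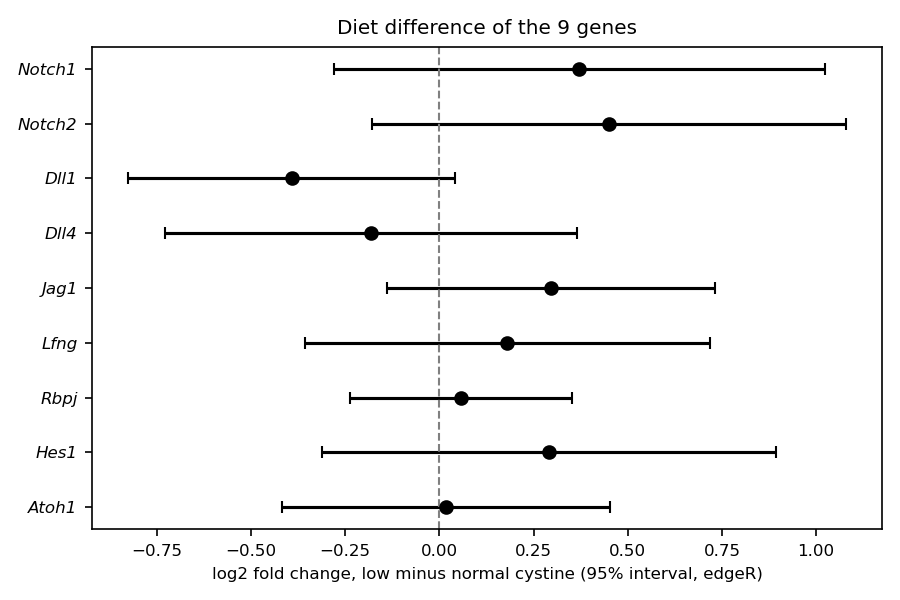
Log2 fold change (low minus normal cystine, horizontal axis) of each of the 9 genes, from edgeR, with its 95% interval. All 9 intervals cross the dashed line at 0, and the estimates run from -0.39 for Dll1 to 0.45 for Notch2.

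The libraries held between 14888760 and 22412703 counts, so that a member was measured with between 58 and 637 counts per library. The spread between the 4 normal cystine mice was larger than counting error for all members (by coefficient of variation). The excess was slight for Jag1 (10.3% against 9.83%) and Lfng (13.5% against 12.1%), whose spread 4 mice cannot tell from counting error. X1SI4, a normal cystine library, had the lowest value for Notch1, Notch2 and Lfng and the highest for Atoh1. It also had the lowest summed CPM (counts scaled to library size) of 11 Paneth cell markers (1050, against 3745 to 7967 in the others) and of 12 proliferation markers (162, against 200 to 515), and the highest of 7 goblet cell markers (22089, against 12061 to 14903). The summed level of 8 general epithelial markers was 13460 to 14567 on normal cystine and 11137 to 12828 on low cystine, and that of 10 stromal markers was 19.3 to 26.3 and 36.5 to 43.3, and that of 12 enterocyte markers was 42278 to 62633 and 22986 to 41404, so these 3 lists did not overlap between the diets. Their part in the differences below was not tested. Neither the labels nor the study's methods give a sequencing batch.

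Promoter windows of 250 bases before the transcription start were taken from RefSeq (GRCm38.p6) and matched 8 of the 9 members, all but Hes1. They were searched on both strands for TGGGAA, the core of the site that Rbpj binds (TTCCCA on the other strand). It occurred in 2 of these 8 genes, Lfng and Rbpj itself. Counted by window, it occurred in 3 of the members' 10, beside 21.6% of all 32851 windows. Of those 3, 2 are overlapping windows of Rbpj that share a match. The 4 windows printed here are of Lfng, Rbpj, Jag1 and Dll1. Jag1 and Dll1 are the ligands whose levels moved in opposite directions from mouse to mouse. They lie at chr2:137116521-137116770 (Jag1, minus strand), chr17:15376933-15377182 (Dll1, minus strand, the one of its 2 windows that lies nearer the start of the gene in the counted annotation), chr5:140607091-140607340 (Lfng, plus strand) and chr5:53590096-53590345 (Rbpj, plus strand, the first of 2 overlapping windows). The other Dll1 window held no match either. Each printed window reads 5′ to 3′ along the gene, and capitals mark the matched letters.
Jag1: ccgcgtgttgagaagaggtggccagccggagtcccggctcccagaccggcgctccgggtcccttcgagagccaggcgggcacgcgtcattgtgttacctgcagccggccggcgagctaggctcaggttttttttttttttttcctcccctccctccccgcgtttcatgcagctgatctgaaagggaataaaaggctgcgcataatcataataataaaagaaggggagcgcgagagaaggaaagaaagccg
Dll1: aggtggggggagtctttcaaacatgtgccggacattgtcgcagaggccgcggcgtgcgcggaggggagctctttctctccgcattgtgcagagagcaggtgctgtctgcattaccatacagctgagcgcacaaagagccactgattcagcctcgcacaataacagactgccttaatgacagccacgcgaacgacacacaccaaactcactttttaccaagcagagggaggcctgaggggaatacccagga
Lfng: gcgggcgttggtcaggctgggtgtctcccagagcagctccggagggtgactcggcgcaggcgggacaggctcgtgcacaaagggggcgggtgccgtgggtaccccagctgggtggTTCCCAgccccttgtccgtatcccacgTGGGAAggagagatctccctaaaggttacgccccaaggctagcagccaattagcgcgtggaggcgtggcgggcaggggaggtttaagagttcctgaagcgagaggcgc
Rbpj: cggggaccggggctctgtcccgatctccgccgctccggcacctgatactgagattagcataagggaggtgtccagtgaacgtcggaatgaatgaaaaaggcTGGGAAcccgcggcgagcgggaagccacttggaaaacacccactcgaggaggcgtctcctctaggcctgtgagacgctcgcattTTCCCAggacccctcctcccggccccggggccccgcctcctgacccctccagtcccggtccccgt
In Lfng the matches began 135 and 108 bases before the start, and in the Rbpj window 149 and 65 bases before it. A match is a string of letters and no evidence of binding.

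Compared per kilobase of exon, which is the only scale on which levels of different genes can be set side by side, Atoh1 had the highest mean level (9.28 CPM per kilobase over the 7 libraries). It was followed by Dll1 (5.99), Hes1 (5.82), Dll4 (4.91), Rbpj (4.48), Lfng (1.56), Jag1 (0.905), Notch2 (0.718) and Notch1 (0.492). The delta-like ligands were therefore measured well above Jag1 and above both receptors in this tissue. Atoh1 lay above Dll1 in 7 of 7 libraries, and the order from Rbpj down to Notch1 also held at each step in 7 of 7. The length used was that of all counted exon bases, 14232 for Notch1 and 10506 for Notch2, and the order of the receptors depends on it. Before scaling by length, Notch1 had the higher CPM in X17SI4 (9.20 against 8.57) and in X10SI4 (8.64 against 7.41). Dll1 and Hes1 could not be ordered, since Dll1 was the higher of the pair in 3 of 4 normal cystine libraries and in 0 of 3 low cystine libraries. Hes1 was above Dll4 in 6 of 7 libraries, and Dll4 above Rbpj in 4 of 7.

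The receptors varied widely among mice. Notch1 (chromosome 2, 26457903 to 26516663, GRCm38) had 9.20 CPM in X17SI4, 6.77 in X32SI4, 5.20 in SI9 and 3.73 in X1SI4 on normal cystine, and 8.0 in X23SI4, 7.50 in X26SI4 and 8.64 in X10SI4 on low cystine. The low cystine values all fell inside the range of the normal ones, which was broad (coefficient of variation 37.6%, against 7.08% on low cystine). The log2 fold change was 0.37 ± 0.29 (SE, 95% interval -0.28 to 1.02, adjusted p = 0.800 in edgeR), and it was 0.62 without X17SI4 and 0.19 without X1SI4. Notch2 (chromosome 3, 98013538 to 98150367), the other receptor of crypt stem and progenitor cells, had 8.57, 7.36, 6.41 and 3.77 CPM on normal cystine and 10.7, 8.62 and 7.41 on low cystine, in the same order of libraries. Of the 3 low cystine libraries, 2 were above every normal one and the third was not. Its log2 fold change was 0.45 ± 0.28 (-0.18 to 1.08, adjusted p = 0.794), and it was 0.26 without X1SI4 and 0.31 without X23SI4. The exact two-sided permutation test over the 35 ways to draw 3 of 7 libraries gave p = 0.286 for Notch1 and p = 0.2 for Notch2, where the smallest p it can give is 0.0286.

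**Figure D2:**
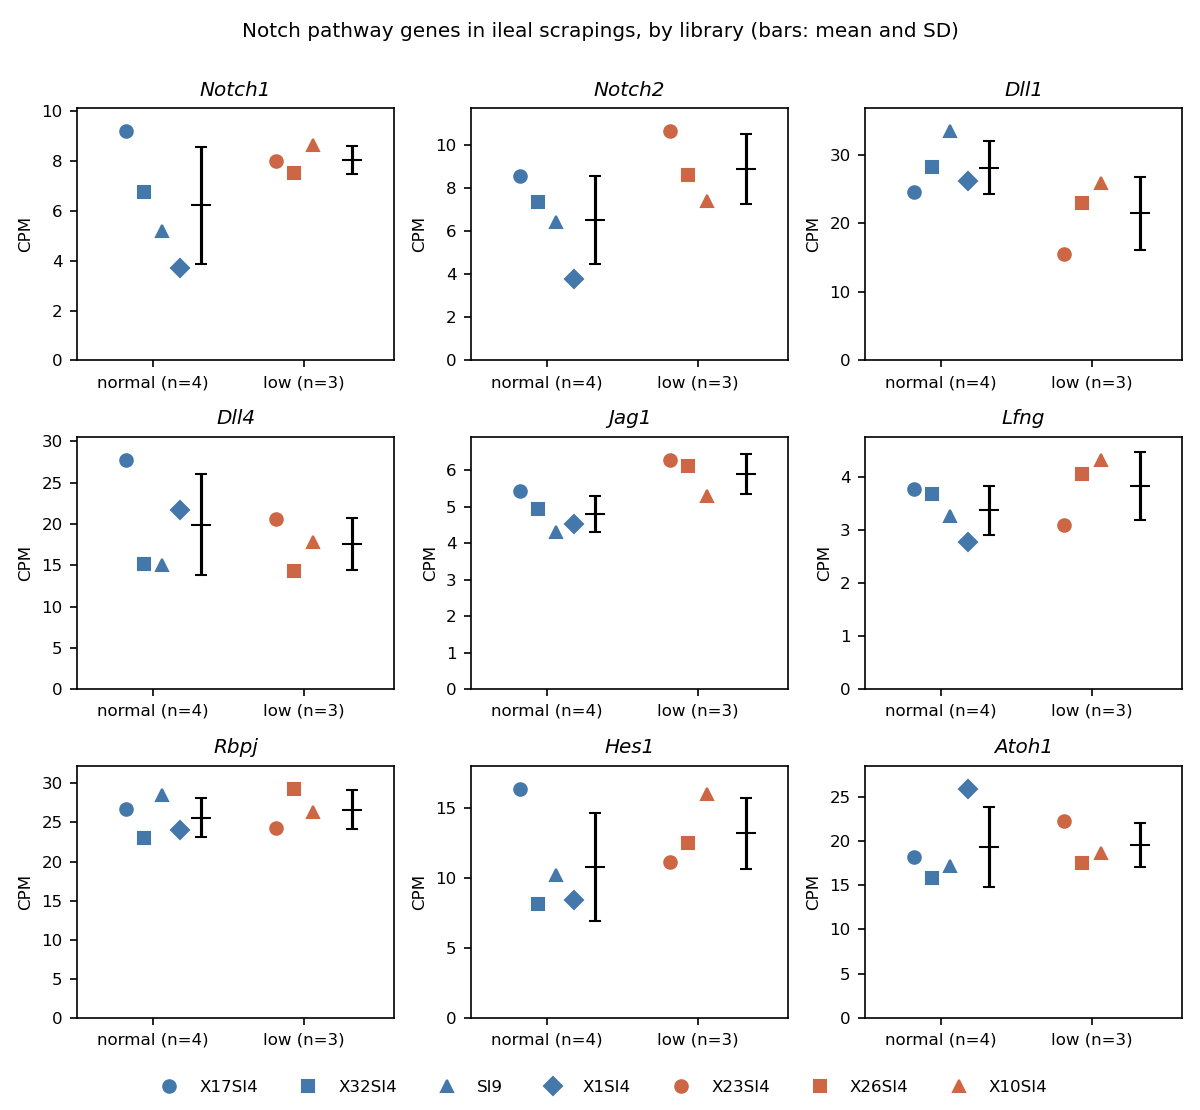
CPM (vertical axis, from 0) of each gene in each library, by diet (horizontal axis). Points are single mice, and bars give the mean and SD of 4 normal and 3 low cystine libraries. The diets overlap in all 9 panels, and the normal cystine library X1SI4 (diamond) is lowest for Notch1, Notch2 and Lfng and highest for Atoh1.

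Among the ligands, Dll1 came closest to a difference. Dll1 (chromosome 17, 15367354 to 15376872), a delta-like ligand carried by secretory progenitors, had 24.7, 28.2, 33.5 and 26.2 CPM in the normal cystine libraries X17SI4, X32SI4, SI9 and X1SI4, and 15.5, 23.1 and 25.8 CPM in the low cystine libraries X23SI4, X26SI4 and X10SI4. X23SI4 stood lowest, X26SI4 was also under all normal libraries, and X10SI4 lay among them. The log2 fold change was -0.39 ± 0.19 (SE, -0.83 to 0.04), with an unadjusted p of 0.0709 and an adjusted p of 0.794 in edgeR. Without X10SI4 it was -0.55 with an unadjusted p of 0.0335, and without X23SI4 it was -0.19.

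Dll4 (chromosome 2, 119325784 to 119335962), the second delta-like ligand of the crypt and also a ligand of endothelial cells, had 27.7, 15.2, 15.1 and 21.7 CPM on normal cystine and 20.6, 14.2 and 17.8 CPM on low cystine. The normal libraries themselves spanned nearly the whole range, with X17SI4 highest. Its log2 fold change was -0.18 ± 0.24 (-0.73 to 0.36, adjusted p = 0.854 in edgeR), and it was 0.02 without X17SI4. Endothelial markers summed to 15.2 to 19.3 CPM on normal and 17.9 to 22.9 CPM on low cystine.

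Jag1 (chromosome 2, 137081456 to 137116644), a ligand of the jagged family, had 5.43, 4.95, 4.31 and 4.54 CPM on normal cystine and 6.29, 6.12 and 5.28 on low cystine. X23SI4 and X26SI4 were above all normal libraries, and X10SI4 was just below the highest of them. Its log2 fold change was 0.30 ± 0.19 (-0.14 to 0.73, adjusted p = 0.794 in edgeR), and the exact permutation p was 0.0857, the same as for Dll1. Relative to the summed epithelial markers of the same library, a sum that itself separated by diet, the median of all genes tested was higher by 0.22 on low cystine and 11.2% of them separated. On that scale Jag1, Lfng and Rbpj did too, with mean log2 differences of 0.48, 0.37 and 0.25 (exact permutation p of 0.0286 for Jag1 and 0.0571 for Lfng and Rbpj, not adjusted). Relative to the summed proliferation markers, 0 of 9 members separated and the difference of Jag1 was -0.31 (exact permutation p = 0.486), where the median of all genes was -0.57.

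Lfng (chromosome 5, 140607341 to 140615543), which adds sugars to the receptors and so changes which ligands they answer to, was the member with the fewest counts, 58 to 81 per library. It had 3.76, 3.68, 3.26 and 2.77 CPM on normal cystine and 3.10, 4.06 and 4.32 on low cystine. X26SI4 and X10SI4 were above all normal libraries while X23SI4 was below 3 of them, and the log2 fold change was 0.18 ± 0.24 (-0.36 to 0.72, adjusted p = 0.854 in edgeR). It was 0.33 without X23SI4, 0.095 without X1SI4 and 0.082 without X10SI4. Rbpj (chromosome 5, 53555779 to 53657445), the DNA-binding partner of all Notch receptors, varied least, by 1.27-fold between its lowest and highest library. It had 26.7, 23.1, 28.5 and 24.0 CPM on normal cystine and 24.3, 29.3 and 26.4 on low cystine, with the 2 diets interleaved. Its log2 fold change of 0.06 ± 0.13 had the narrowest interval of the 9 (-0.24 to 0.35, adjusted p = 0.910 in edgeR), and it ran from 0.0075 without X26SI4 to 0.13 without X23SI4. When libraries were scaled to their totals alone, its values separated by diet (difference in mean log2 CPM 0.20, exact permutation p = 0.0286), but that scaling raised the median of all genes by 0.14.

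For the outputs, too, the diets overlapped. Hes1 (chromosome 16, 30064384 to 30067796), the repressor that Notch switches on, had 16.4, 8.13, 10.3 and 8.46 CPM on normal cystine and 11.1, 12.5 and 16.0 on low cystine. X17SI4 was highest of all and the other normal libraries were the lowest of all, so the low cystine libraries fell between them. The log2 fold change was 0.29 ± 0.27 (-0.31 to 0.89, adjusted p = 0.812 in edgeR). It depended on single libraries, at 0.56 without X17SI4 (unadjusted p 0.0215 in edgeR, not passing after adjustment), 0.13 without X10SI4 (unadjusted p 0.693), 0.19 without X1SI4 and 0.19 without X32SI4. The omission of X17SI4 also gave Notch1 an unadjusted p of 0.0377, and that of X1SI4 one of 0.441. Without X17SI4, 1763 of 14786 genes tested had an unadjusted p under 0.05 in edgeR, against 817 of 14869 with all libraries. Atoh1 (chromosome 6, 64729146 to 64731233), the master factor of secretory commitment, had 18.2, 15.9, 17.1 and 25.9 CPM on normal cystine and 22.3, 17.5 and 18.7 on low cystine. X1SI4 was highest and the low cystine libraries lay within the normal range, with a log2 fold change of 0.02 ± 0.19 (-0.42 to 0.45, adjusted p = 0.985 in edgeR).

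Ratios between members of the same library do not depend on library scaling. The ratio of Jag1 to Dll1 plus Dll4, in counts per kilobase, was 0.0725, 0.0812, 0.0636 and 0.0669 on normal cystine (X17SI4, X32SI4, SI9, X1SI4) and 0.121, 0.116 and 0.0856 on low cystine (X23SI4, X26SI4, X10SI4). All 3 low cystine mice were above all 4 normal ones, with X10SI4 only slightly so. The mean log2 ratio was -3.82 ± 0.15 (SD, n = 4) on normal and -3.23 ± 0.27 (SD, n = 3) on low cystine, a difference of 0.59 with an exact permutation p of 0.0286, the smallest possible, and 0.114 after adjustment over the 4 ratios examined. It did not pass, but a ratio that separates alone could not have passed this adjustment with so few mice, so the adjusted value decides nothing. The stromal marker sum, which separated by diet as well, ran with Jag1 (r = 0.810, exact permutation p = 0.0361, rho = 0.786 with exact p = 0.0480, adjusted p 0.207 over 63 relations, and r = 0.553 without X23SI4 and X26SI4), and its part in this ratio was not tested. The other ratios overlapped: the log2 difference was 0.30 for Hes1 to Atoh1 (exact permutation p = 0.543, and 0.049 without X1SI4 against 0.53 without X17SI4), -0.05 for Notch1 to Notch2 (p = 0.857) and -0.26 for Dll1 to Dll4 (p = 0.571). Hes1 to Atoh1, the balance between the Notch output and the gene it represses, ran from 0.337 in X1SI4 to 0.923 in X17SI4, both on normal cystine.

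**Figure D3:**
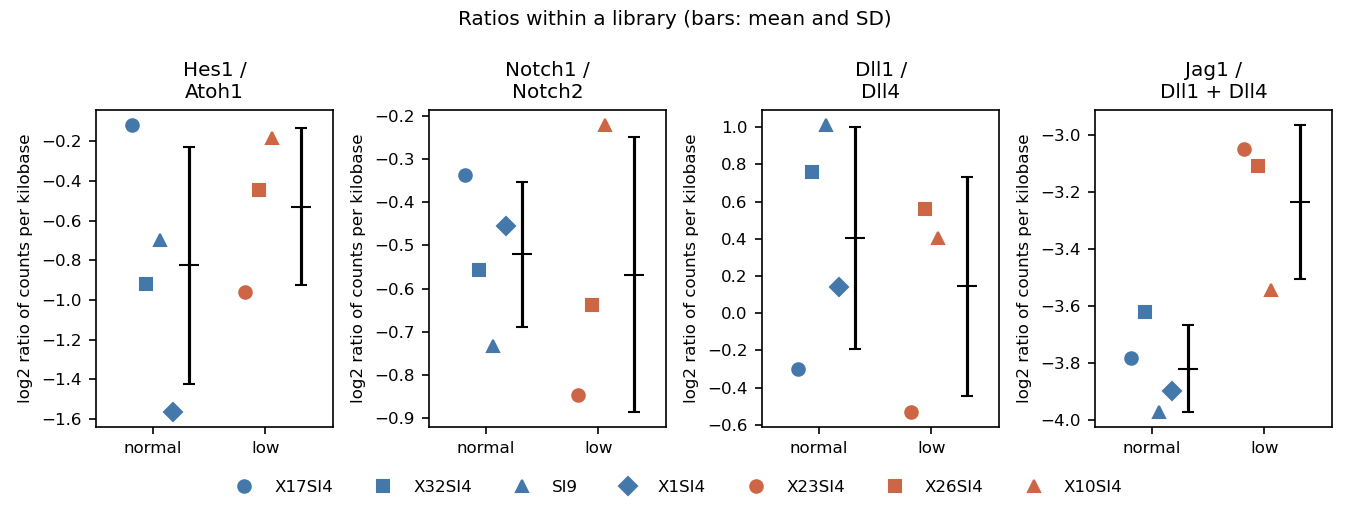
Log2 ratio of counts per kilobase (vertical axis) between members of the same library, by diet (horizontal axis). Points are single mice and bars give the mean and SD. The diets are apart only for Jag1 to Dll1 plus Dll4 (-3.82 and -3.23 on average), and the other 3 ratios overlap.

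From mouse to mouse some members moved together. Of the 36 pairs, 22 had a positive and 14 a negative Pearson r over the 7 libraries, 5 had an exact permutation p under 0.05, and 0 remained after adjustment over the 36 (smallest adjusted p 0.136). Dll1 and Jag1 were the most opposed pair (r = -0.846, exact permutation p = 0.00377, Spearman rho = -0.964 with exact p = 0.00278), and r was -0.798 without SI9 and X23SI4, the 2 libraries farthest from the median of Dll1. Notch1 and Notch2 had r = 0.885 (exact permutation p = 0.0117, rho = 0.714 with exact p = 0.0881), which rested on SI9 and X1SI4, since r was 0.190 without them. Notch1 and Hes1, receptor and output, had r = 0.754 (exact permutation p = 0.0470, rho = 0.857 with exact p = 0.0238), and 0.930 without the same 2 libraries. Notch2 and Jag1 had r = 0.788 (exact permutation p = 0.0194, rho = 0.964 with exact p = 0.00278), and 0.928 without X1SI4 and X23SI4. Notch1 and Lfng had r = 0.750 (exact permutation p = 0.0484, rho = 0.643 with exact p = 0.139), which fell to 0.156 without SI9 and X1SI4. By rank, the smallest adjusted p over the 36 was 0.05, for Dll1 with Jag1 and Notch2 with Jag1. For Hes1 and Atoh1 no relation was detected (r = -0.183, exact permutation p = 0.723, rho = 0.214 with exact p = 0.662).

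Notch1 had its strongest relations with markers of crypt cells. Each member was set against the summed CPM of 7 marker lists, a comparison chosen after the data were seen. Of the 63 relations, 13 had an exact permutation p under 0.05 and 0 had an adjusted p below 0.05, the 4 strongest having exactly 0.05. Notch1 ran with the Paneth markers (r = 0.945, exact permutation p = 0.00139, rho = 0.893 with exact p = 0.0123, and r = 0.811 without the 2 farthest libraries). It also followed the proliferation markers (r = 0.928, exact permutation p = 0.00298, rho = 0.857 with exact p = 0.0238), with 0.652 left without SI9 and X1SI4. By rank its order over the 7 libraries was the same as that of the crypt stem cell markers (rho = 1, exact permutation p = 0.000397, 0.025 after adjustment of the rho values over the 63, and r = 0.835 with exact p = 0.00853). The summed stem cell markers nearly tied in SI9 and X32SI4 (171.28 and 171.87 CPM), so the identical order and its adjusted p rest on a narrow margin. The largest parts of that sum were Axin2 (54.4 to 122.5 CPM) and Slc12a2 (28.9 to 79.3 CPM). Lgr5 (1.29 to 4.57 CPM) and Ascl2 (0.287 to 2.06 CPM) added little to it, and a relation of Notch1 with single stem cell markers was not tested. Jag1 ran opposite to the enterocyte markers (r = -0.901, exact permutation p = 0.00298, rho = -0.964 with exact p = 0.00278, and -0.873 without the 2 farthest). Dll1 ran opposite to the endothelial markers (r = -0.921, exact permutation p = 0.00317, rho = -0.750 with exact p = 0.0663, and -0.719 without them). Dll1 also ran with the enterocyte markers (r = 0.925, exact permutation p = 0.00893, rho = 0.929 with exact p = 0.00675), but r was 0.423 without SI9 and X23SI4. Notch2 ran opposite to the enterocyte markers (r = -0.802, exact permutation p = 0.0462, rho = -0.929 with exact p = 0.00675, and -0.975 without the same libraries). Atoh1 ran with the goblet markers (r = 0.797, exact permutation p = 0.0347, rho = 0.679 with exact p = 0.110), at an adjusted p of 0.207. With the endothelial markers Atoh1 had r = 0.701 (exact permutation p = 0.0829, rho = 0.821 with exact p = 0.0341). Notch2 had r = 0.902 with the Paneth markers (exact permutation p = 0.0145, rho = 0.750 with exact p = 0.0663, and 0.833 without the 2 farthest), 0.841 with the proliferation markers (exact permutation p = 0.00595, rho = 0.786 with exact p = 0.0480), which rested on SI9 and X1SI4 (0.416 without them), and 0.666 with the stem cell markers (exact permutation p = 0.0681, rho = 0.714 with exact p = 0.0881).

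With diet taken out, by centring both values within each diet and permuting within diets, 6 of the 63 relations had an exact p under 0.05 and 0 passed after adjustment (smallest adjusted p 0.35). Notch1 with the Paneth markers kept r = 0.925 (exact permutation p = 0.00694, the smallest possible here), with the proliferation markers 0.903 (p = 0.0278) and with the stem cell markers 0.800 (p = 0.0347). The within-diet r of Atoh1 was 0.936 with the goblet markers (exact permutation p = 0.0139) and 0.839 with the endothelial markers (p = 0.0278). That of Dll1 was -0.868 with the endothelial markers (exact permutation p = 0.0208) and 0.866 with the enterocyte markers (p = 0.0625). With the enterocyte markers, the within-diet r was -0.793 for Jag1 (exact permutation p = 0.0625) and -0.695 for Notch2 (p = 0.0556). For Jag1 with the stromal markers it was 0.388 (exact permutation p = 0.431). Of the 36 pairs of members, 0 had an exact p under 0.05 on this footing: Dll1 with Jag1 gave -0.716 (exact permutation p = 0.118), Notch1 with Notch2 0.841 (p = 0.0556), and Notch1 with Hes1 0.685 (p = 0.243).

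**Figure D4:**
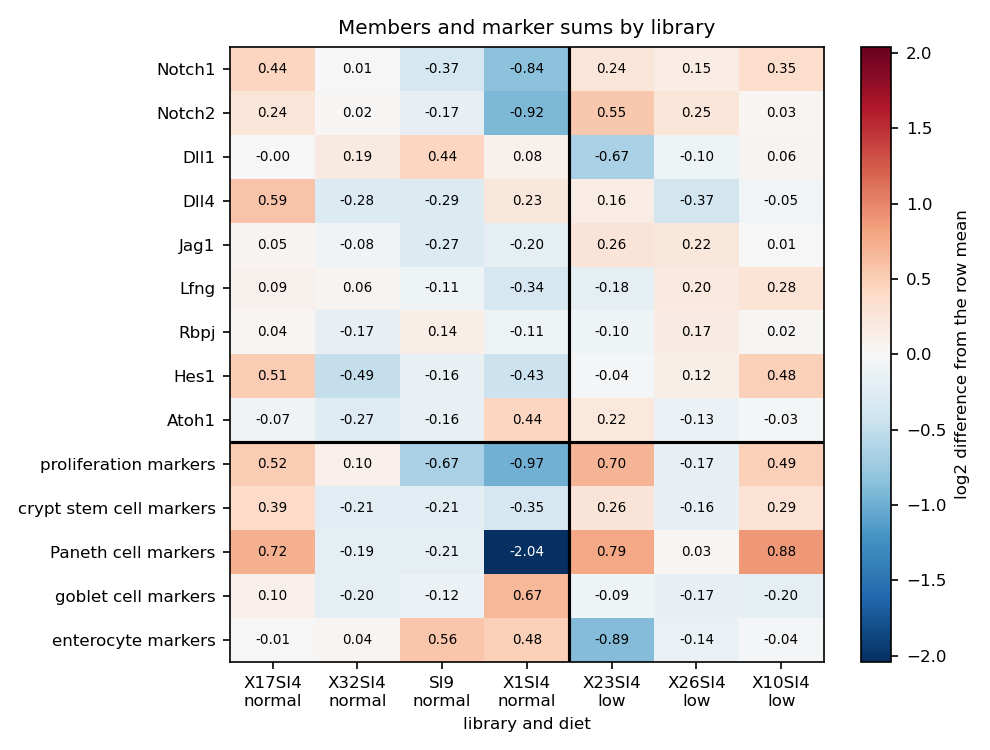
Log2 difference from the row mean (colour and printed values) for the 9 genes and for 5 summed marker lists, in each library (columns, normal cystine left and low cystine right of the line). X1SI4 is low for Notch1, Notch2, proliferation and Paneth markers and high for Atoh1 and goblet markers.

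Among 10318 tested genes with a mean of at least 5 CPM, those whose log2 CPM followed Notch1 most closely over the 7 libraries were Racgap1 and Cit, both needed for cytokinesis, Hpse, Vgll4 and the G1 cyclin Ccnd1 (r = 0.983 to 0.995). Racgap1 had 32.8, 18.4, 11.7 and 6.88 CPM on normal cystine and 28.4, 21.4 and 28.0 on low cystine. Ccnd1 ran from 15.5 CPM in X1SI4 to 173 in X17SI4. For Atoh1 they were Kbtbd11, Hspa4l, Mllt3, Arrb1 and Gm6565 (0.960 to 0.975), and for Hes1 Rnf44, Marcks, Rcbtb2, the immunoglobulin segment Ighv3-6 and Tmed2 (0.888 to 0.975). These are the highest of many correlations over 7 points and carry no test.

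Other genes of the pathway were counted as a list of 63, of which 53 were tested. Of these, 0 passed the adjusted threshold and 1 had an unadjusted p under 0.05 (5.49% of all genes did). With 27 estimates higher and 26 lower on low cystine, the median log2 fold change was 0.00. The gene was Jag2, the second jagged ligand, with 2.56, 1.5, 1.84 and 2.05 CPM on normal cystine and 5.22, 2.56 and 3.8 on low cystine. All low cystine values were above the normal ones, X26SI4 only by a margin smaller than this rounding, and the log2 fold change was 0.96 ± 0.32 (SE, unadjusted p = 0.0135, adjusted p = 0.794 in edgeR). Without X23SI4, 0 genes of the list had an unadjusted p under 0.05. Psenen, a subunit of the γ-secretase that cuts the receptor, also separated, with 63.8 to 75.7 CPM on normal and 54.2 to 63.1 on low cystine (log2 fold change -0.23 ± 0.12, adjusted p = 0.794 in edgeR). Jag2 and Psenen were the only 2 of the 53 to separate, where 6.83% of all genes tested did. The next smallest p belonged to the co-repressor Tle3 (-0.31 ± 0.15, unadjusted p 0.0629 in edgeR). Of 9 listed targets, 4 were tested, and their log2 fold changes were -0.41 ± 0.20 for Hes2, -0.73 ± 0.44 for Heyl, 0.18 ± 0.19 for Nrarp and -0.10 ± 0.15 for Hes6, none with an unadjusted p under 0.05. By role, 0 of 9 cleavage genes, 0 of 13 endocytosis and turnover genes, 0 of 20 nuclear complex genes and 0 of 5 receptor-glycosylation genes had one. Notch3 and Dll3 did not pass the filter on low counts.

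Of 13 other factors linked to secretory commitment, 12 were tested. Again 0 passed the adjusted threshold and 1 of the 12 had an unadjusted p under 0.05 (5.49% of all genes tested did). The gene was Sox4, a factor of secretory and tuft progenitors. It had 5.07, 4.31, 3.79 and 4.20 CPM on normal cystine and 8.90, 4.56 and 8.96 on low cystine. X26SI4 lay among the normal libraries, so the diets overlapped (log2 fold change 0.78 ± 0.27, unadjusted p = 0.0161, adjusted p = 0.794 in edgeR). Cbfa2t3, a co-repressor, was the only one of the 12 whose libraries separated, where 6.83% of all genes tested did. It had 4.20 to 5.81 CPM on normal and 5.86 to 6.94 on low cystine (log2 fold change 0.30 ± 0.20). Neurod1, of enteroendocrine precursors, and Sox9, of crypt base cells, had log2 fold changes of -0.38 ± 0.28 and 0.28 ± 0.27.

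The cell types that Notch signalling divides gave no adjusted call in any list. All 11 Paneth markers and all 12 proliferation markers had estimates higher on low cystine (median log2 fold change 0.72 and 0.62), but 0 of either had an unadjusted p under 0.05 (5.49% of all genes tested). Of 12 enterocyte markers 11 were lower in estimate, 3 with an unadjusted p under 0.05, and of 7 tuft cell markers all were lower, 3 with one, where 2.83% of all genes tested were lower at that threshold. At an unadjusted p under 0.05, goblet markers had 0 of 7 and enteroendocrine markers 1 of 10. This was Gcg, which was higher on low cystine (log2 fold change 0.80). Crypt stem cell markers had 1 of 9, the ion transporter Slc12a2, also higher on low cystine (0.89). Of all genes tested, 2.66% were higher at that threshold.

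Some counts could not be assigned to 1 gene with certainty. The antisense genes Gm13568 and 0610009E02Rik overlap 10.4% of the exon bases of Notch1, AC154378.1 overlaps 20.5% of those of Dll1, and Gm14207 overlaps 5.56% of those of Dll4, with up to 24, 57 and 135 counts in a library. Whether strand was used in the counting is not given in the sources used here. Of the 50-base stretches of Rbpj transcripts, 10.6% also occur in other genes' transcripts, among them the pseudogenes Rbpj-ps1 and Rbpj-ps3, and for Jag1, Lfng, Hes1 and Atoh1 the share was 0%.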

How the data were processed

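Poly(A)-selected stranded libraries of 7 ileal scrapings were sequenced in paired-end mode. Per the study's methods, the authors trimmed reads with Trim Galore (version 0.6.5 in the submitters' processing notes), removed ribosomal reads, aligned to GRCm38 with STAR and counted exonic reads with featureCounts. The deposited values are raw counts per gene, neither normalized nor pooled. Strand setting and treatment of multimapping reads are not given in the sources used here. Diet came from the sample labels, age and cystine content from the methods. All 7 columns belonged to a labelled sample, and 36345 of 38293 gene identifiers matched GENCODE M21.

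Genes passing filterByExpr (minimum count 10, minimum total 15) were tested in edgeR 4.0.16 (R 4.3.3) with TMM factors, a robust quasi-likelihood fit without covariates and Benjamini-Hochberg adjustment. Depth was 14888760 to 22412703 counts. CPM used TMM-scaled totals, and log2 CPM a prior count of 2. Single values, ratios and correlations were tested by exact permutation over libraries (Python 3, scipy). DESeq2 1.42.0 and limma-voom (limma 3.58.1) were alternatives. The edgeR and DESeq2 steps were tested on simulated data. Replicates are separate mice, and their numbers pair nothing.

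Members, lists and tests were chosen with earlier results of these data known. Beside the members, the genes named were, in the pathway and secretory lists, those with an unadjusted p under 0.05 and the next smallest up to 4, all tested targets, marker genes with an unadjusted p under 0.05, and the 5 genes most like Notch1, Hes1 and Atoh1. Notch3, Dll3 and the antisense genes were named after their values were seen.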

Additional observations from a re-analysis of the deposited data

Results flagged for a closer look

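Each of the 9 member levels, the 4 ratios and the 17 list sums was examined for a single normal cystine library far from the other 3 by Dixon's criterion at the 95% level, and 0 of 30 values were.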

How the results depend on the processing

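Over 117 combinations of a member and an alternative fit, the direction of the log2 fold change was the same in 112, and no member passed the adjusted threshold in any. The 5 reversals all came from leaving out 1 library: Dll4 was 0.021 and Atoh1 -0.0071 without X17SI4, and Atoh1 was -0.048 without X32SI4, -0.036 without SI9 and -0.080 without X23SI4. Over the 7 omissions Hes1 ran from 0.13 to 0.56, Notch1 from 0.19 to 0.62, Notch2 from 0.26 to 0.61, Lfng from 0.082 to 0.33, Dll1 from -0.55 to -0.19, Jag1 from 0.24 to 0.37, Rbpj from 0.0075 to 0.13, Dll4 from -0.30 to 0.021 and Atoh1 from -0.080 to 0.19. Genes passing the adjusted threshold numbered 16 with DESeq2, 0 with limma-voom, and 0 to 1 when 1 library was left out. Members with an unadjusted p under 0.05 numbered 1 without the filter (Dll1) and 0 to 2 on leaving out 1 library (2 without X17SI4, 1 without X10SI4). In the list of other pathway genes that count was 3 with library totals, 2 without the filter, and 0 to 4 on leaving out 1 library (4 without X17SI4). Over all genes tested it was 817 of 14869 in the main fit, 1037 of 14869 with library totals and 1112 of 22796 without the filter. It was 1763 of 14786 without X17SI4 and 522 of 15164 without X10SI4, so such p-values were far more common everywhere without X17SI4. With library totals, 1 member separated by diet (Rbpj). The ratio of Jag1 to Dll1 plus Dll4 differed by 0.49 to 0.74 with 1 library left out. Since all low cystine mice lay above all normal ones, no omission could change its sign or its separation. The exact permutation p (0.0667 or 0.1) was therefore bound to be the smallest those sizes allow, and only the size of the difference could vary. With 1 library left out, Hes1 to Atoh1 ran from 0.049 to 0.53, Notch1 to Notch2 from -0.22 to 0.092, above 0 without X17SI4 and without X23SI4, and Dll1 to Dll4 from -0.49 to 0.079, above 0 without X23SI4. Relative to summed epithelial markers Dll4 was 0.042, where the median of all genes tested was 0.22. Relative to summed proliferation markers, a reference chosen after the data were seen, the 7 positive differences in mean log2 CPM became negative: Notch1 -0.16, Notch2 -0.11, Jag1 -0.31, Lfng -0.42, Rbpj -0.54, Hes1 -0.27 and Atoh1 -0.56, with exact permutation p of 0.314 to 0.686. On that scale the median of all genes tested was -0.57, so the change of sign was not particular to the members. The cause of these changes was not tested. No paired analysis was possible because the replicate numbers of the diets mark different mice and pair nothing.

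With 4 and 3 mice, the exact permutation tests reach p = 0.0286 at best, and the edgeR intervals of the receptors span more than a doubling. Lfng and Jag1 rest on few counts.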
